A study of Mus musculus with 6 samples.

Results

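The nuclear genes of the mitochondrial respiratory chain were followed through the open chromatin of beige, white and brown adipocytes in culture. Members were the protein-coding genes whose symbols name a subunit of complex I (Ndufa, Ndufb, Ndufc, Ndufs and Ndufv), complex II (Sdha to Sdhd), complex III (Uqcr and Cyc1), cytochrome c oxidase, which is complex IV (Cox4 to Cox8), or ATP synthase, which is complex V (Atp5). Cox7a1 and Cox8b were left out by the rule, and the Ndufa prefix also takes in the Ndufaf genes, which encode assembly factors of complex I. The rule found 93 annotated entries with 92 symbols among 21851 protein-coding genes of the GENCODE annotation of mm10. Atp5o accounts for the difference, because a second entry with this symbol lies across the Atp5o locus on chromosome 16.

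ATAC-seq, in which a transposase inserts sequencing adaptors into open chromatin, was available as peak lists of 6 libraries, 2 for each of 3 kinds of culture. All came from the stromal vascular fraction of wild type male C57BL/6J mice of 3 to 4 weeks, which was differentiated for 7 days. Beige and white cultures came from inguinal fat and brown cultures from brown adipose tissue. Every induction medium held insulin (5 μg/ml in the sample labels) and 0.5 mM isobutyl methylxanthine. The paper's methods differ from the labels here, with insulin at 0.5 μg/ml for beige and 1 μg/ml for white induction. Beige and brown cultures received 5 μM dexamethasone, 1 nM T3 and 1 μM rosiglitazone, and white cultures received 1 μM dexamethasone and neither T3 nor rosiglitazone. Beige against white therefore compares media within 1 depot, brown against beige compares depots within 1 medium, and brown against white differs in both. The paper does not describe brown ATAC-seq libraries, and whether they were made together with the others is not given. Depot therefore cannot be told apart from a difference between experiments. The labels do not say that libraries of 1 condition came from separate mice, so their spread may be technical. By the paper's account, fewer reads were mapped in both beige libraries than in both white ones, so depth differs in that comparison too.

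The respiratory chain passes electrons from NADH and succinate through complexes I to IV to oxygen and pumps protons across the inner mitochondrial membrane, and ATP synthase uses the returning protons to make ATP. In brown and beige adipocytes the uncoupling protein Ucp1 lets protons return without ATP synthesis, so that the energy is released as heat. Most subunits are made from nuclear genes used in nearly every cell, while a few subunits of complex IV have paralogs restricted to muscle, lung or testis. ETS family factors and the nuclear respiratory factor Nrf1 are known to bind many of these promoters. The subunits encoded by mitochondrial DNA lie outside the peak lists.

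Each member was described by its strongest promoter peak, that is, the peak with the highest fold enrichment whose summit lay within 1 kb of a start site of the gene. The fold enrichment is measured against the background of the same library, so it was read only as a rank. A percentile is the place of the promoter peak among all peaks of its own library ordered by fold enrichment, in which the strongest peak stands at 100. The lists held 109143 to 127490 peaks, and 65.8% to 66.7% of all protein-coding genes had a promoter peak. All 8 adipocyte markers, Adipoq and Pparg among them, had a promoter peak in every library. A weak Ucp1 promoter peak was listed in brown alone, at percentiles 9.12 and 4.23, and both inguinal cultures lacked one. Of 6 macrophage markers 2 had a promoter peak in every library, as had 3 of 4 endothelial markers. Progenitor markers had one for 2 or 3 of 4, skeletal muscle markers for 1 to 3 of 5 and brown depot markers for 3 or 4 of 5 in beige and white and 5 in brown, and the part of other cells in the results was not tested. In a bulk culture, fewer cells with an open promoter and less opening per cell cannot be told apart.

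The chain's promoters were open almost throughout. A promoter peak was present in all 6 libraries for 88 of the 93 entries (94.6%), where the share of all protein-coding genes was 62.0%. The share was 100% for the genes of the mitochondrial ribosome and 96.2% for those of the cytosolic ribosome. All 36 subunits of complex I, all 4 of complex II, all 9 of complex III and all 8 Ndufaf assembly factors had a peak in every library. Complex V had peaks in every library for 17 of 18 entries, and the missing one was the second Atp5o entry, whose start lies inside Atp5o. Complex IV had them for 14 of 18 entries, and its 4 missing members, Cox6a2, Cox7b2, Cox8c and Ndufa4l2, are all paralogs that replace a ubiquitous subunit in particular tissues or conditions.

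The ranks of the members lay high in every library. The median percentile of members with a peak was 95.9 and 94.7 in beige, 94.3 and 93.0 in white and 94.5 and 95.1 in brown. Over all protein-coding genes it was 87.9 and 86.4 in beige, 87.3 and 84.4 in white and 88.3 and 89.7 in brown. The members' median thus lay above that of all genes in each of the 6 libraries, and the lowest library was white 2 for both. Medians of the mitochondrial ribosome genes ran from 93.8 to 96.3 over the libraries, and those of the cytosolic ribosome genes from 85 to 93.7. Of the 88 members with a peak throughout, 43 (48.9%) ranked above the 90th percentile in all 6 libraries, against 28.4% of all genes with a peak throughout. The range over the 6 libraries was 6.77 percentile points at the median for members and 11.4 for all genes, so a given gap is a larger part of the members' usual spread.

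**Figure D1:**
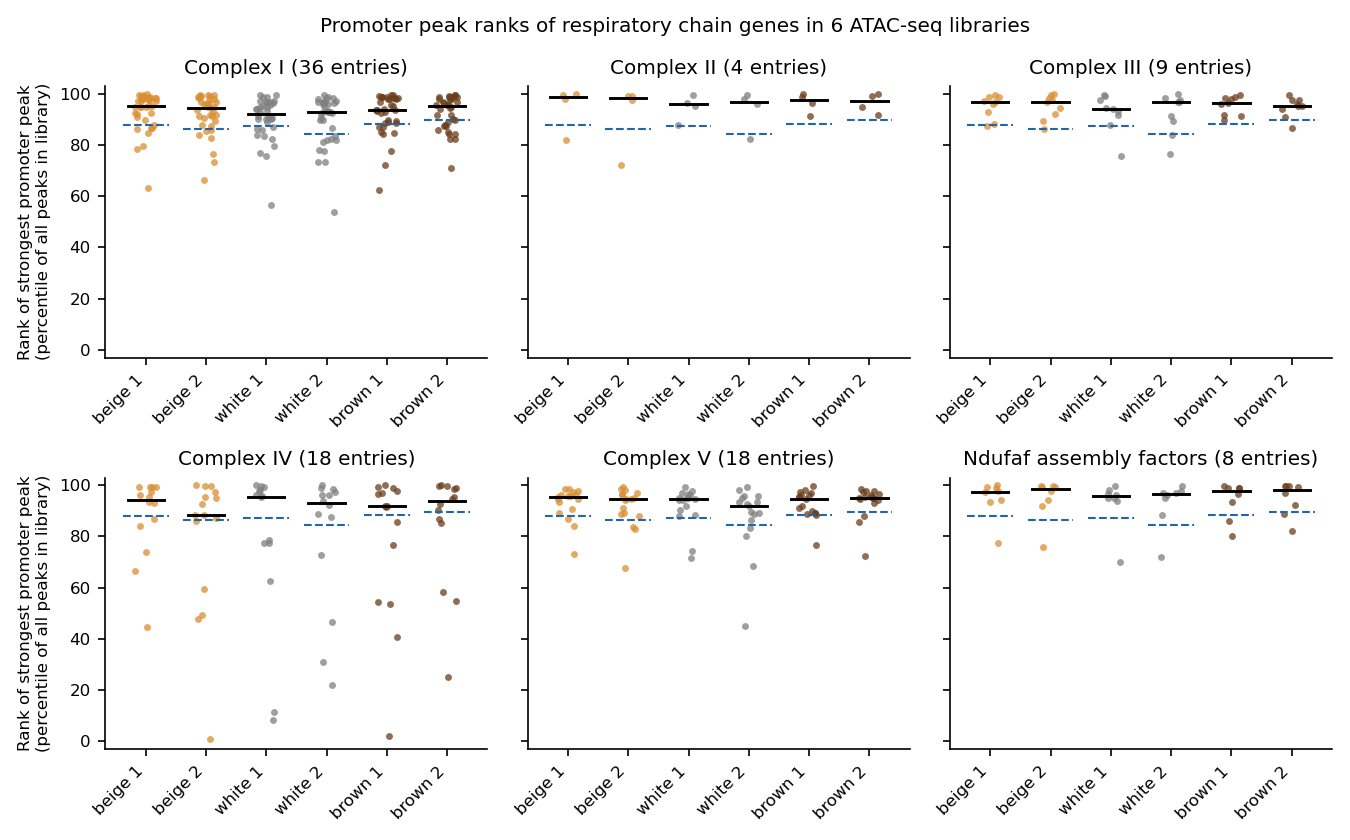
Percentile of the strongest promoter peak (y axis) in each library (x axis) for the members of each complex. Each point is 1 gene, the black line is the median of the complex and the dashed blue line is the median of all protein-coding genes. Points crowd near the top in every library, and the low points belong mainly to complex IV.

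Of the 5 complexes, complex II had the highest median in every library, except that complex IV without its restricted isoforms stood at 95.9 in white 1, where complex II stood at 95.8. Medians of the 4 complex II genes ran from 95.8 to 98.7 over the libraries, those of complex III from 94.0 to 96.8, those of complex I from 92.0 to 95.2 and those of complex V from 91.8 to 95.5. Complex IV ran from 88.3 to 95.5 with its restricted isoforms, of which Ndufa4l2 entered in beige 2 and brown 1 alone, and from 93.8 to 95.9 without them. The assembly factors ran from 95.6 to 98.4. In beige, both complex III medians (96.8 and 96.7) lay above both of complex I (95.2 and 94.6) and of complex V (95.5 and 94.7), and in white, those of complex III (94.0 and 96.6) lay above those of complex I (92.0 and 92.9). The members of a complex are not replicates, and these orders were not tested.

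The member with the highest mean rank was Ndufaf7, a methyltransferase that acts during complex I assembly. Its percentile was 99.7 to 99.9 in all 6 libraries, and its promoter is shared with Cebpz, whose start lies 70 bp away on the other strand. Cox7c, a small subunit of complex IV, followed with 99.2 and 99.5 in beige, 100 and 100 in white and 100 and 99.8 in brown. Sdha, the flavoprotein that oxidises succinate in complex II, ranged from 99.2 to 100, Cox7a2 of complex IV from 98.8 to 99.9 and Uqcrb of complex III from 99.2 to 99.9. These 5 promoters stood at 98.8 or above in every library.

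The 5 members with the lowest mean rank among those with a peak throughout were Cox6b2, Cox4i2, Cox7b, Ndufb10 and Atp5d. Cox7b, a ubiquitous subunit of complex IV, stood at 66.7 and 49.4 in beige, 62.6 and 46.6 in white and 40.6 and 58.2 in brown. Its libraries overlapped between all 3 conditions. Ndufb10, an accessory subunit of the membrane arm of complex I, stood at 63.3 and 66.3 in beige, 56.4 and 54.0 in white and 62.6 and 71.0 in brown. Both white values lay below the other 4. Atp5d, the delta subunit of ATP synthase, stood at 73.3 and 67.6 in beige, 71.4 and 44.9 in white and 76.5 and 72.5 in brown. White 2 was far below the other 5 libraries there, and the beige and white values overlapped. The Atp5d summits spread over 911 bp, so that different peaks within 1 kb of its start sites stand behind these values.

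Some isoform sets of complex IV differed widely in rank. Cox4i1 encodes the ubiquitous form of subunit 4 and Cox4i2 the form known from lung and from low oxygen. Cox6a1 and Cox6b1 are ubiquitous, Cox6a2 is the heart and skeletal muscle form, and Cox6b2, Cox7b2 and Cox8c are testis forms. The stretch from 120 bases before each gene's start to 30 bases from it on is given for the 2 pairs whose restricted isoform had peaks in every library. It reads 5′ to 3′ on the gene's strand in GRCm38 (mm10) as RefSeq has it. Such a stretch need not hold the summit behind a rank. Cox4i1 at chr8:120668102-120668251 on the plus strand, Cox4i2 at chr2:152754053-152754202 on the plus strand, Cox6b1 at chr7:30626122-30626271 on the minus strand and Cox6b2 at chr7:4753065-4753214 on the minus strand read as follows, with capitals where the letters match an ETS form (CCGGAAGT or CCGGAAGC), an NRF1 form (GCGCATGC), an SP form (GGGGCGGG) or another of the motifs named further on, on either strand.
Cox4i1: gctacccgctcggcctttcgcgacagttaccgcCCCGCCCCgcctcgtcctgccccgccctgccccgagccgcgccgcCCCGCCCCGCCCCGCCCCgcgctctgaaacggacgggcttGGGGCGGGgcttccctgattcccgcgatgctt
Cox4i2: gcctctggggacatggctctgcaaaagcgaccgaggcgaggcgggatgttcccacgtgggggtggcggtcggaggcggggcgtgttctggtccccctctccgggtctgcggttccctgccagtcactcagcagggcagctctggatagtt
Cox6b1: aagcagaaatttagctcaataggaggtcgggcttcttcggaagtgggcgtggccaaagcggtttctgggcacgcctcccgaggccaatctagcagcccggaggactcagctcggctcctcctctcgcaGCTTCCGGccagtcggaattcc
Cox6b2: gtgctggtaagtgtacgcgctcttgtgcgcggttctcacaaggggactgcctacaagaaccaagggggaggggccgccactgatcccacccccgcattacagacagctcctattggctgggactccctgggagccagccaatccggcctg
The Cox4i1 stretch held 5 SP matches, 2 pairs of neighbours among them sharing 3 bases each, and 23 CpG. The Cox6b1 stretch held 1 ETS match, and neither restricted isoform's stretch held a match in these letters, with 11 CpG for Cox4i2 and 7 for Cox6b2. Most Cox6b2 summits lay downstream of its stretch. An SP match lay there 505.5 bp from the gene's start and 30.5 bp from the median place of the summit over the libraries.

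Cox4i2 had a promoter peak in all 6 libraries but at very different ranks, and that of white 1 lay at another place. Its percentile was 73.9 and 59.3 in beige, 8.5 and 22.1 in white and 54.4 and 25.2 in brown, a mean of 66.6 ± 10.3 (SD, n = 2) in beige, 15.3 ± 9.64 in white and 39.8 ± 20.6 in brown. Both beige values lay above all 4 others, both white values lay below all 4 others, and the range of 65.4 points was the widest of all members. The peak in beige 1 spanned chr2:152753863-152754644 with a fold enrichment of 7.66, and that in white 1 spanned chr2:152754315-152754582 with 2.74. The white 1 peak does not cover the gene's start. Its summit lay 249 bp downstream of the nearest start, and in the other 5 libraries it lay 28 to 49 bp upstream. Cox4i1 stood at 86.7 and 85.9 in beige, 77.5 and 72.7 in white and 85.7 and 85.2 in brown, so that it ranked above Cox4i2 in every library and was also lowest in white.

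Cox6b2 stood at 44.5 and 47.8 in beige, 11.5 and 31.1 in white and 53.7 and 54.8 in brown. Its white libraries were below the other 4 and its brown libraries above them. Its summit was not at 1 place, with a range of 850 bp over the libraries, so that different peaks within 1 kb of its start sites stand behind these values. Cox6b1 stood at 97.4 and 95.1 in beige, 96.1 and 96.2 in white and 91.8 and 92.7 in brown, where both brown values were below the other 4.

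The other restricted paralogs had little or no promoter peak. Cox6a2, Cox7b2 and Cox8c had none within 1 kb in any library. The nearest summit to Cox6a2 lay at -2022 to -1983 bp from its start in all 6 libraries, where a minus sign means upstream, that to Cox7b2 lay 2428 to 2464 bp downstream in 5 libraries and 45956 bp away in beige 1, and that to Cox8c lay at -13154 bp or farther upstream. Ndufa4l2, the paralog of the complex IV subunit Ndufa4 that is induced by low oxygen, had a promoter peak in beige 2 (percentile 0.944) and brown 1 (1.94) and in no other library. Ndufa4 itself stood between 95.2 and 98.7. A peak that is absent from a list may have missed the threshold by little, and the lists do not show how near it came.

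Ubiquitous paralogs were not set apart in this way. Cox7a2 ranged from 98.8 to 99.9 and its paralog Cox7a2l from 94.8 to 99.3. Atp5g1, Atp5g2 and Atp5g3 encode the same mature c subunit of the ATP synthase ring. Atp5g1 ranged from 88.9 to 97.4, Atp5g3 from 80.3 to 90.7 and Atp5g2 from 68.5 to 88.3, and the order Atp5g1, Atp5g3, Atp5g2 held in each of the 6 libraries. Cycs, the somatic cytochrome c that carries electrons from complex III to complex IV and is no member, stood between 83.5 and 97.8, and its testis form Cyct had a promoter peak in brown 2 alone (percentile 35.3).

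**Figure D2:**
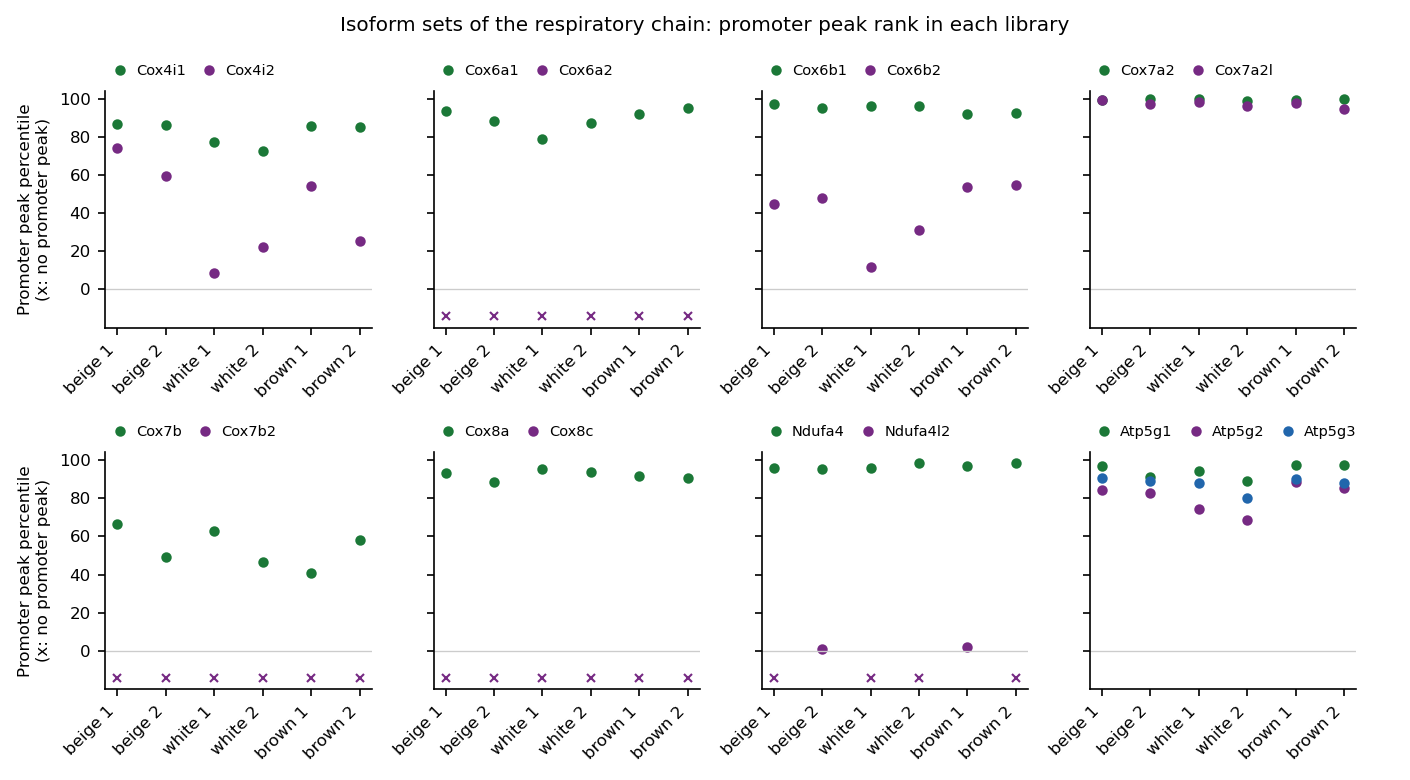
Percentile of the strongest promoter peak (y axis) in each library (x axis) for 8 isoform sets, 1 colour for each gene. Crosses below the line mark libraries with no promoter peak, as for Cox6a2, Cox7b2 and Cox8c in all 6 libraries, and Cox4i2 and Cox6b2 lie below their partners in every library.

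A gene was counted as ranked higher in 1 condition when both its libraries lay above both libraries of the other. No test was made of single genes, since with 2 libraries a condition the smallest two-sided p of an exact permutation test is 0.333. The 3 comparisons share libraries with one another, so they are not independent. Counts of members are given beside the share of all protein-coding genes counted in the same way.

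Beige was compared with white to ask whether the chain's promoters differ between thermogenic and white differentiation of the same depot. Of 88 members, 42 (47.7%) ranked higher in beige than white, against 28.5% of all genes, and 7 (7.95%) ranked higher in white than beige, against 19.9%. The median difference of beige minus white was 1.66 percentile points for members and 0.69 for all genes. Without white 2 it was 1.17 and -0.28, and without white 1 it was 1.66 and 1.44. By complex, 18 of 36 complex I genes ranked higher in beige and 1 in white, 5 of 9 and 0 in complex III, 5 of 14 and 2 in complex IV, 7 of 17 and 2 in complex V, 2 of 4 and 1 in complex II and 5 of 8 and 1 among the assembly factors. Most gaps were small, with 11 of the 42 over 5 points and 18 at 1 point or less. Their median was 1.4 points, less than the median difference of 2.43 points between white replicates over the members. No member had a promoter peak in both beige libraries and neither white library, or the reverse, against 0.531% and 0.407% of all genes.

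The excess over all genes was shared by other gene groups. Of 78 Mrpl and Mrps genes, which encode the mitochondrial ribosome, 46.2% ranked higher in beige and 7.69% in white, and of 77 Rpl and Rps genes, which encode the cytosolic ribosome, 53.2% and 5.19%. The list of 37 assembly factors and carriers with peaks in both conditions had 16.2% in each direction. Ranking among the promoter peaks of all genes in place of all peaks of the list gave 32 members (36.4%) higher in beige and 15 (17%) in white, against 24.7% and 25.5% of all genes, and a median difference of 4.04 for members and -0.32 for all genes. Leaving out a library made separation easier for members and for all genes alike and gave 18, 17 and 20 members higher in white without beige 1, white 1 and white 2 (20.5%, 19.3% and 22.7%), against 32.0%, 29.4% and 41.0% of all genes.

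Cox4i2 and Cox6b2 held the first and the third widest gap of beige over white, at 37.2 and 13.4 points. The second was Uqcr11, a small accessory subunit of complex III, with 92.8 and 92.0 in beige, 75.7 and 76.3 in white and 91.4 and 86.6 in brown. The replicates were close together and the gap was 15.6 points. Atp5g2 had 84.2 and 82.9 in beige, 74.3 and 68.5 in white and 88.3 and 85.6 in brown. In both genes the white libraries lay below the other 4. Uqcr11 carried 1 ETS and 1 NRF1 match near its start, and the stretch at chr10:80406801-80406950 on the minus strand is shown with both in capitals.
Uqcr11: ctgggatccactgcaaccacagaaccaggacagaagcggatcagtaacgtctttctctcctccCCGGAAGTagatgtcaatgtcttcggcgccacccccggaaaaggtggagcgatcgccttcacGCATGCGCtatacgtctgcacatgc

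In the other direction the widest gap of white over beige was that of Atp5j, coupling factor 6 of ATP synthase, with 86.8 and 83.6 in beige, 94.1 and 92.8 in white and 89.3 and 94.5 in brown. Beige lay below the other 4 libraries by at least 2.54 points. The Atp5j summit lay nearer to the start of Gabpa, which encodes an ETS family factor and is read from the other strand, in all 6 libraries. Ndufa13, an accessory subunit of complex I, had 78.3 and 76.6 in beige, 86.4 and 81.1 in white and 84.2 and 84.3 in brown, and its summits were nearer to Tssk6 or Yjefn3 in all 6. The Ndufa13 summits spread over 1603 bp, so that different peaks stand behind these values, in white and in brown replicates too. Atp5a1, the alpha subunit of ATP synthase, had 94.8 and 94.8, 96.7 and 98.1, and 88.8 and 94.9. Ndufaf1, an assembly factor of complex I, and Cox8a, the ubiquitous subunit 8 of complex IV, had gaps of 0.686 and 0.587 points, less than the median difference between white replicates over the members, which was 2.43 points.

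Brown was then compared with white. Of 88 members, 36 (40.9%) ranked higher in brown than white, against 34.6% of all genes, and 7 (7.95%) ranked higher in white than brown, against 15.0%. The median difference was 1.53 points for members and 1.68 for all genes. This order turned without white 2 (1.08 and 0.53) and without brown 2 (1.37 and 1.32). It also turned when ranked among promoter peaks (2.39 and 0.20) and by -log10 q (0.51 and 0.37). The share higher in brown lay nearer to that of all genes than in beige against white. Complex V had 8 of 17 genes higher in brown and complex I 15 of 36, while complex IV without its restricted isoforms had 2 of 12 in each direction. Without white 1 the count higher in brown became 57 of 88 (64.8%), against 57.3% of all genes. The count higher in white became 15, 20, 16 and 12 (17%, 22.7%, 18.2% and 13.6%) without white 1, white 2, brown 1 and brown 2. The shares of all genes higher in white were then 25.5%, 30.5%, 22.2% and 25.6%. Promoter peaks listed in both libraries of 1 condition and in neither of the other were found for no member, brown or white, against 0.485% and 0.545% of all genes.

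Cox6b2, Atp5g2 and Uqcr11 had the widest gaps of brown over white, at 22.6, 11.3 and 10.3 points. Ndufaf3, an assembly factor of complex I, had a gap of 8.34 points, with 77.6 and 75.9 in beige, 70.0 and 71.9 in white and 80.2 and 82.2 in brown. Its 3 conditions did not overlap. Its summits spread over 484 bp, and differed between beige replicates and between brown replicates, so that different peaks stand behind these values. In the other direction Ndufaf1 had the widest gap, with 93.6 and 94.2 in beige, 94.9 and 96.9 in white and 86.1 and 88.9 in brown. Ndufc2, an accessory subunit of complex I, was next, with 87.6 and 91.1 in beige, 89.0 and 93.3 in white and 72.0 and 84.4 in brown. Both brown values were the lowest of each gene. Cox6b1, Cox8a and Atp5a1 followed with gaps of 3.42, 2.17 and 1.81 points.

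Brown against beige compares depots in the same medium, and possibly separate experiments. Of 88 members, 18 (20.5%) ranked higher in brown than beige, against 33.2% of all genes, and 18 (20.5%) ranked higher in beige than brown, against 17.4%. The median difference of brown minus beige was -0.06 points for members and 0.85 for all genes. Complex I had 5 of 36 genes higher in brown and 10 in beige, and complex V 5 of 17 and 1. The balance depended on the measure. Ranked by the deposited -log10 q in place of fold, 5 members were higher in brown and 52 (59.1%) in beige, against 15.3% and 34.1% of all genes. Without beige 1, brown 1 or brown 2, 34, 35 or 29 members (38.6%, 39.8% or 33.0%) were higher in brown, against 50.2%, 50.4% or 42.7% of all genes. Without beige 2, brown 1 or brown 2, 34, 35 or 32 members (38.6%, 39.8% or 36.4%) were higher in beige, against 30.9%, 27.0% or 31.7% of all genes. No member had a promoter peak in both libraries of 1 and neither of the other, against 0.343% of genes for brown alone and 0.600% for beige alone.

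Sdhb, the iron-sulfur subunit of complex II, had the widest gap of brown over beige. It stood at 81.9 and 72.1 in beige, 87.9 and 82.2 in white and 91.3 and 91.6 in brown, a difference of means of 14.4 points between brown and beige. Its 3 conditions did not overlap, and its fellow subunits Sdha, Sdhc and Sdhd ranged from 94.9 to 100 between them. Ndufa6, an accessory subunit of complex I, stood at 92.6 and 90.6 in beige, 90.3 and 95.9 in white and 99.0 and 98.6 in brown. Cox6b2, Ndufa13 and Uqcrh followed with gaps of 5.87, 5.84 and 3.57 points. For Cox6b2 and Ndufa13 different peaks stand behind the values, as said above. Uqcrh, the hinge protein of complex III, stood at 88.1 and 86.1 in beige, 87.9 and 89.5 in white and 91.6 and 94.0 in brown. In the other direction the 5 widest gaps were those of Cox4i2, Ndufb7, Ndufaf1, Ndufc2 and Cox6b1, from 4.99 down to 2.37 points.

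**Figure D3:**
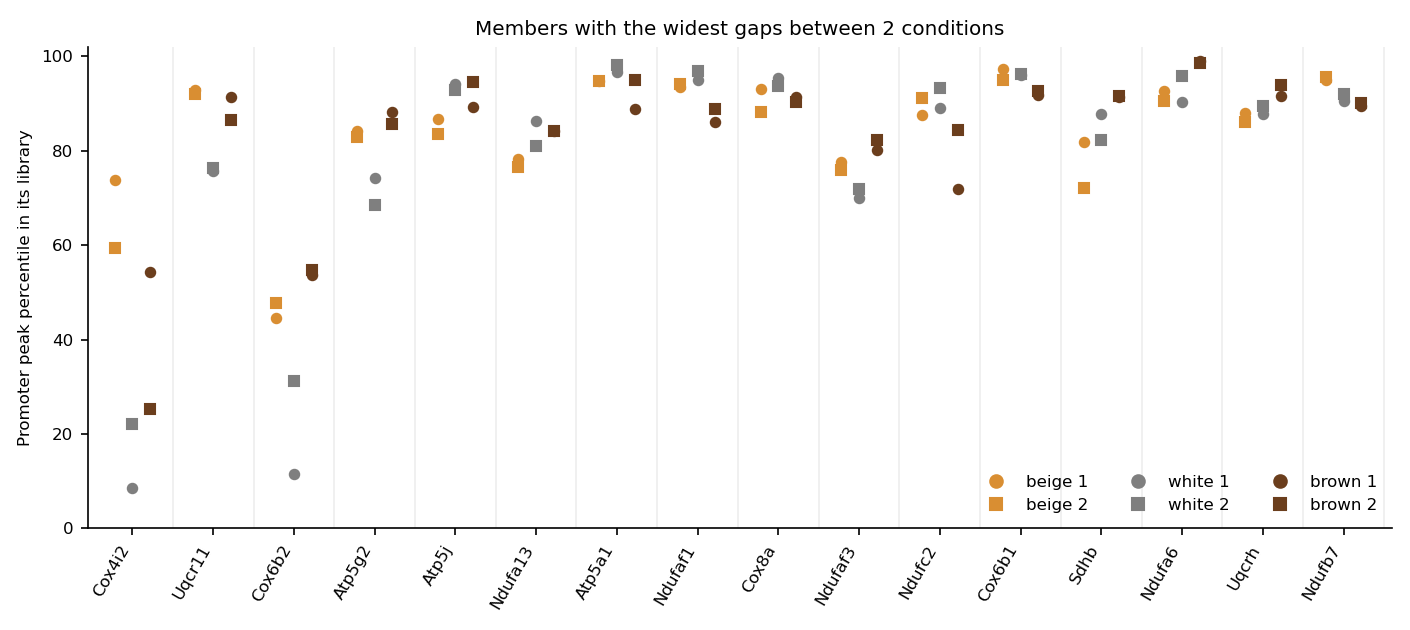
Percentile of the strongest promoter peak (y axis, from 0) for members among the 5 widest gaps of a comparison and direction. Colour gives the condition and shape the replicate, and Cox4i2, Cox6b2, Uqcr11 and Atp5g2 have both white libraries below the other 4.

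Seen against the other 4 libraries together, both white libraries were lowest for 28 of 88 members (31.8%), against 19.1% of all genes with a peak throughout. Both beige libraries were highest for 11 members (12.5%), against 10.2%, and both brown libraries for 10 (11.4%), against 16.1%. Cox4i1, Cox4i2, Atp5k, Ndufb6 and Uqcr11 were among both the 28 and the 11. Atp5k, the e subunit of ATP synthase, stood at 95.9 and 98.2 in beige, 88.4 and 89.5 in white and 91.8 and 94.2 in brown. Ndufv2, which carries an iron-sulfur cluster in the NADH dehydrogenase module, stood between 98.8 and 99.6 in 5 libraries and at 95.9 in white 2, and Uqcr10 of complex III between 91.8 and 98.0. The Uqcr10 summit lay 22 to 41 bp from the start of Zmat5 in all 6 libraries, nearer than to its own start.

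**Figure D4:**
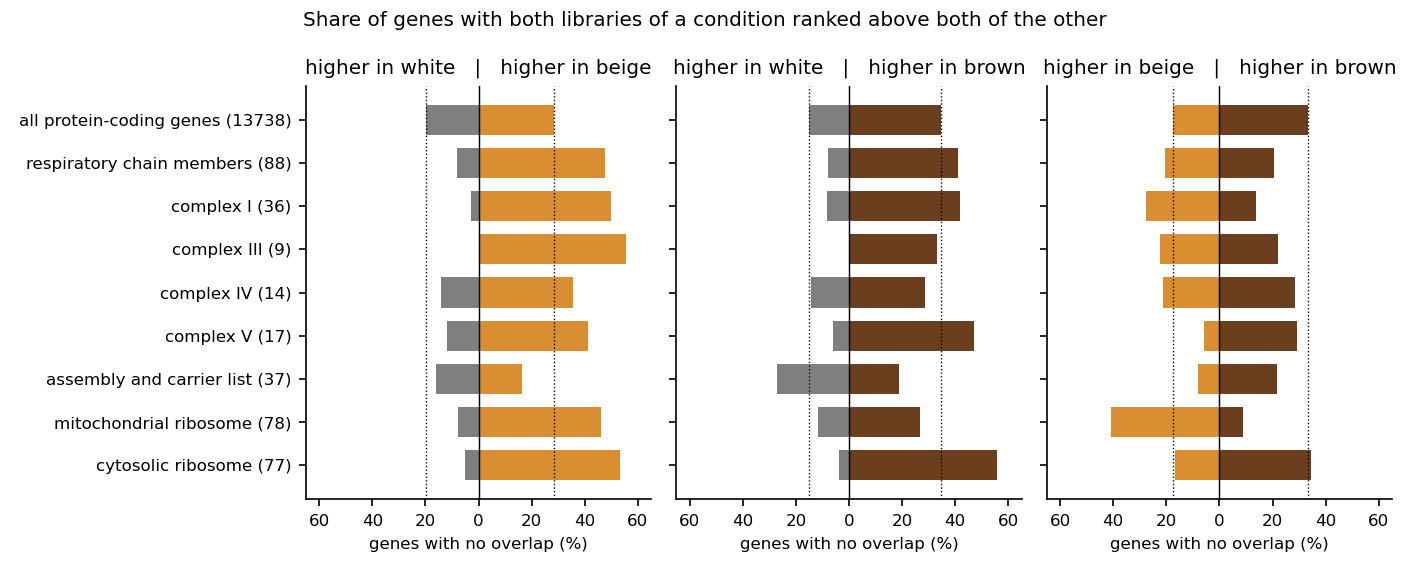
Share of genes (x axis, %) with both libraries of a condition ranked above both of the other, to the right for the first condition and to the left for the second, by gene group. The dotted lines are all protein-coding genes, numbers in brackets are the genes tested in beige against white, and the members' bar passes the dotted line to the right in beige against white and falls short of it in brown against beige.

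The members' promoters shared features that the rule did not use and that were not particular to them. Another protein-coding gene started within 1 kb upstream on the other strand for 27 of 93 entries (29%), against 9% of all genes. For 17 of the 89 members with any promoter peak, the summit lay nearer to another gene's start in 1 or more libraries, and for 8 of them, Ndufb3, Ndufs3, Atp5f1, Ndufa13, Sdhd, Uqcr10, Atp5j and Ndufa11, it did so in every library. The peak of such a promoter cannot be assigned to 1 of both genes. The ratio of observed to expected CpG from 250 bases before the start to 50 bases from it on was 0.78 at the median, against 0.52 for all genes, with a GC content of 56.3% and 55%. Summits lay 33.0 to 41.0 bp from the nearest start at the median of each library, against 62.0 to 77.0 bp for all genes. The Mrpl and Mrps genes had a partner on the other strand for 32.1%, a CpG ratio of 0.82 and summits at 27.5 to 44.5 bp. The list of assembly factors and carriers had such a partner for 25.6% and a ratio of 0.76, and the Rpl and Rps genes 15% and 0.81.

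Motif letters were searched on both strands within 100 bp of each strongest promoter summit. An ETS form (CCGGAAGT or CCGGAAGC) lay there for 19.8 ± 0.902% of members (mean ± SD over 6 libraries) and 11.7 ± 0.149% of all genes with a promoter peak. The NRF1 form GCGCATGC lay at 12.1 ± 1.20% and 4.06 ± 0.367%, and the YY1 form ATGGCGGC at 10.6 ± 1.18% and 4.32 ± 0.146%. The SP form GGGGCGGG was less frequent at members, with 17 ± 2.30% and 24.9 ± 2.09%, as were the NFY forms CCAATCA and CCAATGA, with 8.30 ± 1.55% and 12.1 ± 0.795%. From 250 bases before the gene's start to 50 bases from it on, whether or not a peak was there, the order for SP turned, with 22.6% of members and 20.7% of all genes. The CRE form TGACGTCA lay at 4.72 ± 1.66% and 2.94 ± 0.212%. The 6 libraries see mostly the same promoters, so this spread is not that of independent samples.

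By complex, the shares rest on few genes and their differences were not tested. ETS matches were found in every library for 3 of 9 genes of complex III, 4 of 12 of complex IV without restricted isoforms and 5 of 17 of complex V, and for 2 to 4 of 36 of complex I. YY1 matches were found for 6 or 7 of 36 genes of complex I, 2 of 9 of complex III and 0 of 12 of complex IV without restricted isoforms. Complex III also had NRF1 matches for 2 of 9 genes. At the summit's median place over the libraries, 18 members had an ETS match, 10 an NRF1 match and 4 both, namely Atp5k, Cox6a1, Sdhb and Uqcr11. All 10 YY1 matches read on the strand of the gene, where 67.4% of 651 matches did so over all genes. The ERR form TCAAGGTCA was found at Sdhd and Atp5g3 and at 0.103% of all genes' summits. The NRF1 form can match on both strands with 6 shared bases, as at Atp5k, and such a pair was counted for 1 promoter once.

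Further stretches over the same 150 bases show such matches beside the start, in capitals. Atp5k at chr5:108434419-108434568 on the minus strand holds the NRF1 form on both strands, Cox8a at chr19:7217587-7217736 on the minus strand and Uqcrh at chr4:116075042-116075191 on the minus strand each hold 1 ETS form on the opposite strand, and Atp5g3 at chr2:73911297-73911446 on the minus strand holds the ERR form.
Atp5k: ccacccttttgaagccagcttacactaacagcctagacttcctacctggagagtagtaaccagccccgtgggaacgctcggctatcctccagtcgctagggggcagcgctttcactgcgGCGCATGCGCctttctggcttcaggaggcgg
Cox8a: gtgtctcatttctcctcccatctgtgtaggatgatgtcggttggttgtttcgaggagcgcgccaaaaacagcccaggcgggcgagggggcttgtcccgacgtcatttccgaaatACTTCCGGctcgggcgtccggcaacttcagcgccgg
Uqcrh: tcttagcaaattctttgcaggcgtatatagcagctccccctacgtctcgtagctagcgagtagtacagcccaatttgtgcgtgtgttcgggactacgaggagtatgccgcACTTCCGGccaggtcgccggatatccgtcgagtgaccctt
Atp5g3: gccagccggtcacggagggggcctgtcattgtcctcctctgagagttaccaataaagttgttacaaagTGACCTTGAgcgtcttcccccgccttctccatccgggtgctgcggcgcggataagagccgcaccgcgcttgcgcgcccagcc
The ETS match shown for Cox8a lay 14.5 bp from the summit, and another, beyond the end of the stretch, lay 51.5 bp from it. That of Uqcrh lay 23.5 bp from its summit, and the median distance of the members' 20 ETS matches was 41.0 bp. Members with an ETS match ranked no higher than the rest, with medians of 91.6 to 93.7 over the libraries for 18 members and 93.4 to 96.5 for 71 without one. A match is a description of letters and not a bound site.

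**Figure D5:**
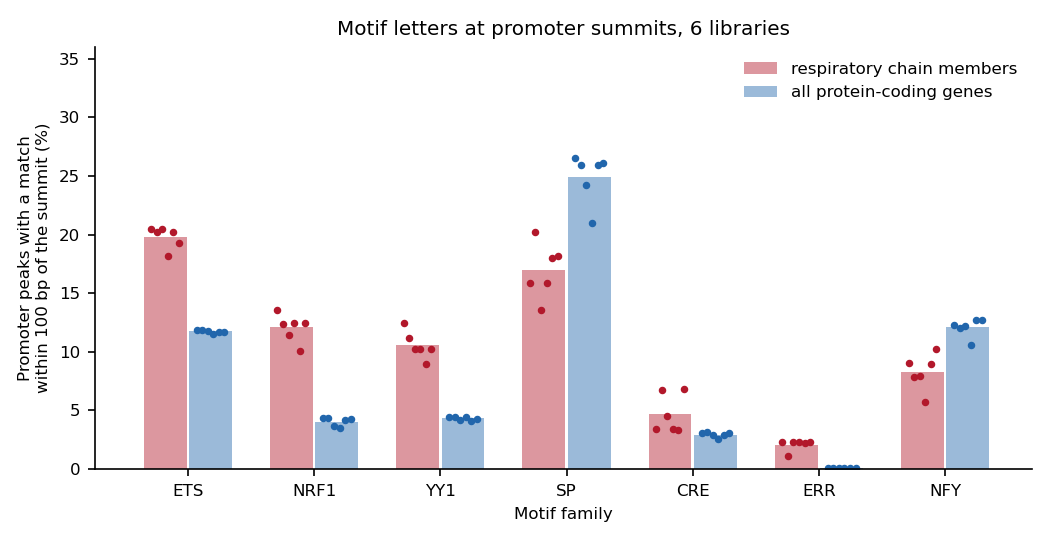
Share of strongest promoter peaks with a match within 100 bp of the summit (y axis, %) for 7 motif families (x axis), in members and in all protein-coding genes. Bars are means and points the 6 libraries, and members lie above all genes for ETS, NRF1, YY1, CRE and ERR and below for SP and NFY.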

How the data were processed

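ATAC-seq was measured in 6 libraries of beige, white and brown adipocyte cultures. The authors trimmed reads with Trimmomatic, aligned them to mm10 with BWA and called peaks in each library with MACS2 under default settings at a q-value under 0.05. Whether read ends were shifted for the transposase is not given in the sources used here. The deposited lists give each summit a fold enrichment, a ratio to the library's own background, and the authors' -log10 p and q. The lists do not give read depth. The paper's reporting summary gives both beige libraries fewer mapped reads and a lower mapped share than both white libraries. Brown libraries are not listed there. How depth enters the ranks was not tested.

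Summits of 1 interval were reduced to the strongest. A promoter peak had its summit within 1 kb of a start site of a protein-coding basic transcript of GENCODE M21, and the highest fold was used, ranked as a percentile within its library. Sequences were read from RefSeq's GRCm38.p6 genome. Python 3.11.15, pandas 2.3.3 and pysam 0.24.0 were used, and the steps were tested on simulated data. Conditions were compared by overlap of libraries, with no test. Named were the genes of each complex that the study names, isoform sets, members lacking a peak, the 5 highest and 5 lowest by mean rank and the 5 widest gaps per direction, except 1 item that is not reported here. Members and lists were chosen with earlier results of these data known.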

Additional observations from a re-analysis of the deposited data

How the results depend on the processing

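Under 20 alternatives to the processing, 282 of 327 values stayed close to those reported, 45 moved and 0 reversed. Close was a wide class, since 60 members higher in beige than white without white 1 still counted as close to 42. Values of a comparison that does not use the left-out library could not change. The brown minus beige difference of -0.06 was smaller than its spread of 0.924, so a change of its sign could not count as reversed. It did change sign, as to 0.32 with all lists cut to the length of the shortest. No paired analysis was possible because the labels do not tie replicate numbers across conditions and no test was made. The median percentile of members in beige, white and brown was 94.2, 91.7 and 93.2 with peaks of q under 0.00001, 97.5, 95.9 and 95.8 ranked by -log10 q, 75.2, 71.7 and 70.1 ranked among the promoter peaks of all genes, and 96.3, 94.7 and 95.6 with every summit as a peak, an alternative chosen after seeing the data. Ranking among promoter peaks changes the scale by construction. It gave a median difference of 4.04 for beige minus white and -1.62 for brown minus beige, with 15 members higher in white than beige (17%, against 25.5% of all genes) and 15 higher in white than brown (17%, against 23.6%). Ranked by -log10 q, the median difference of brown minus beige was -1.25, and 16 members were higher in white than brown (18.2%, against 23.1% of all genes). By the same rank 5 were higher in brown than beige (5.68%, against 15.3%) and 52 in beige than brown (59.1%, against 34.1%), and the cause was not tested. With a promoter distance of 250 bp, 76 members had a peak in all 6 libraries. Of 77 members, 11 were then higher in brown than beige (14.3%, against 33.5% of all genes). At this distance 3 had a peak in white and not beige, 3 in brown and not beige and 1 in beige and not brown. With the gene's 5′ end alone, 1 had a peak in white and not beige and 1 in brown and not beige. Shares of all genes with a peak in 1 condition alone were not counted under these 2 settings. The ETS form was found for 11.9% of members within 50 bp of the summit, 21.7% within 250 bp and 12.5% around the gene's start. Shares of all genes are not given for these windows, so they do not show whether the excess over all genes within 100 bp held there.

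Leaving out 1 library makes separation easier by construction. The counts then ran from 42 to 60 for beige over white, 7 to 20 for white over beige, 36 to 57 for brown over white, 7 to 20 for white over brown, 18 to 35 for brown over beige and 18 to 35 for beige over brown. Members with a peak in beige and not white, or in brown and not white, numbered 0 to 1, and the other 4 such counts stayed at 0. The members with a peak in all libraries stayed at 88. The medians ran from 94.7 to 95.9 in beige, 93.0 to 94.3 in white and 94.5 to 95.1 in brown, the median differences from 1.17 to 1.72 for beige minus white, 1.08 to 2.11 for brown minus white and -0.13 to 0.16 for brown minus beige (over all genes -0.28 to 1.44, 0.53 to 2.35 and 0.39 to 1.29), and the ETS share from 19.7% to 20.1%. The lists hold no reads, so a promoter below the authors' threshold cannot be told from a closed one.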

Other observations

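Other gene lists were counted in the same comparisons. Of the 39 genes of the list of assembly factors and carriers, 37 had a promoter peak in all beige and white libraries. Brown over white held for 18.9% of the 37 and white over brown for 27.0%, and brown over beige held for 21.6% and beige over brown for 8.11%. The mitochondrial ribosome genes had 41.0% higher in beige than brown and 8.97% higher in brown, and the cytosolic ribosome genes 16.7% and 34.6%. An ETS form lay within 100 bp of the summit for 31.0% of the Mrpl and Mrps genes, 25.3% of the Rpl and Rps genes and 31.4% of the assembly and carrier list, at the mean of the 6 libraries, and the YY1 form for 24.4%, 8.35% and 9.86%. These lists were chosen with earlier results known, and the differences between them were not tested.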
